A study of Mus musculus with 15 samples.

Results

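The data described here compare the gastrocnemius, the large and mainly fast muscle of the calf, of old mice on caloric restriction (CR) with that of young mice on the control diet. The samples were chosen by their labels, and they are 10 of the 15 arrays of the series, 5 old CR and 5 young, with 22626 probe sets on each after 64 control probe sets were set aside. All mice were male C57BL/6NHsd, housed singly from a few weeks of age, and 1 array was used for each mouse. The young mice were 5 months old and received the control diet of 84 kcal per week, which is itself somewhat below what such mice eat freely. The old CR mice were 25 months old and had been kept since their arrival as young animals on a diet whose calorie intake differed by 26% from the control diet, enriched so that both diets supplied nearly the same protein, vitamins and minerals. A further group of 5 mice, 25 months old and on the control diet (old), entered the fit for its estimate of the spread, and its levels are given beside some values. Biotin-labelled cRNA made from poly(A)+ RNA of each muscle was hybridized to a MOE430A array. A transcript may have several sets of short probes on it, each giving 1 intensity. Age and diet differ together between the 2 groups, and their parts cannot be told apart in this comparison.

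Skeletal muscle fibers contract with myosins and troponins that exist in slow and fast forms, and they burn glucose stored as glycogen as well as fatty acids. They lie in a connective tissue of collagens made largely by fibroblasts, and each fiber is wrapped in a basement membrane of type IV collagen, laminin and nidogen. CR is known to retard aging in rodents and to shift muscle toward the use of fat, and growth of connective tissue is most active in young animals.

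The values are deposited intensities on a linear scale, compared as log2 values, so that a difference of 1 is a doubling. The array medians were 209.1 to 243.5 in the young and 213.2 to 230.1 in the old CR mice. The 3' minus 5' difference of the control probe sets for Gapdh and Actb, which grows when RNA is broken or copied incompletely, averaged -0.18 ± 0.14 in the young and -0.30 ± 0.08 in the old CR mice (log2, SD, n = 5), with overlapping ranges, against 0.13 ± 0.09 in the old mice. Young replicate 3 stood apart from its group, with a 3' minus 5' difference of 0.06 against -0.28 to -0.18 in the other young mice. Its median correlation with the other young arrays was 0.925, against 0.950 to 0.959 for the rest, and 0.948 with the old arrays. The markers of skeletal muscle fibers gave strong signals on all 10 arrays, for example Acta1 (actin of the muscle fiber) at 27785 to 31874 in the young and 25356 to 37342 in the old CR mice.

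Old CR and young muscle differed at few probe sets by the limma test. At an adjusted p under 0.05 (limma, Benjamini and Hochberg over all 22626 probe sets), 11 probe sets were higher in old CR mice, 0.0486% of those tested, and 9 were lower, 0.0398%. Probe sets that pass this threshold are named called below. At an unadjusted p under 0.05, 1320 probe sets were higher (5.83%) and 1417 were lower (6.26%). All 5 old CR values lay above all 5 young values at 380 probe sets (1.68%) and below them at 427 (1.89%). The gene lists below read each gene by its brightest probe set. Of all 12393 genes read in this way, 649 were higher and 921 lower at an unadjusted p under 0.05. Without overlap, 205 of them were higher and 298 lower. A higher mean was found for 5711 and a lower one for 6682. These counts are the background for all gene lists below. Among the probe sets of highest mean intensity, 48.1% of all and tested on their own, 90 were higher (0.826%) and 124 lower (1.14%) at an adjusted p under 0.05. The total of 20 fell to 7 when old replicate 2 was left out, and it was 8 without old CR replicate 3, 34 without old replicate 4 and between 9 and 13 without any other array except old CR replicate 7, without which it was 20 again. With each array centered on its median instead, 9 were higher and 3 lower, and after quantile normalization 14 were higher and 8 lower. The median log2 difference over all probe sets was -0.01. The 20 called probe sets comprised 18 with 1 gene symbol, from 17 genes, and their groups did not overlap. Of the 20, 14 belonged to this brighter part of the array and 6 were dimmer.

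**Figure D1:**
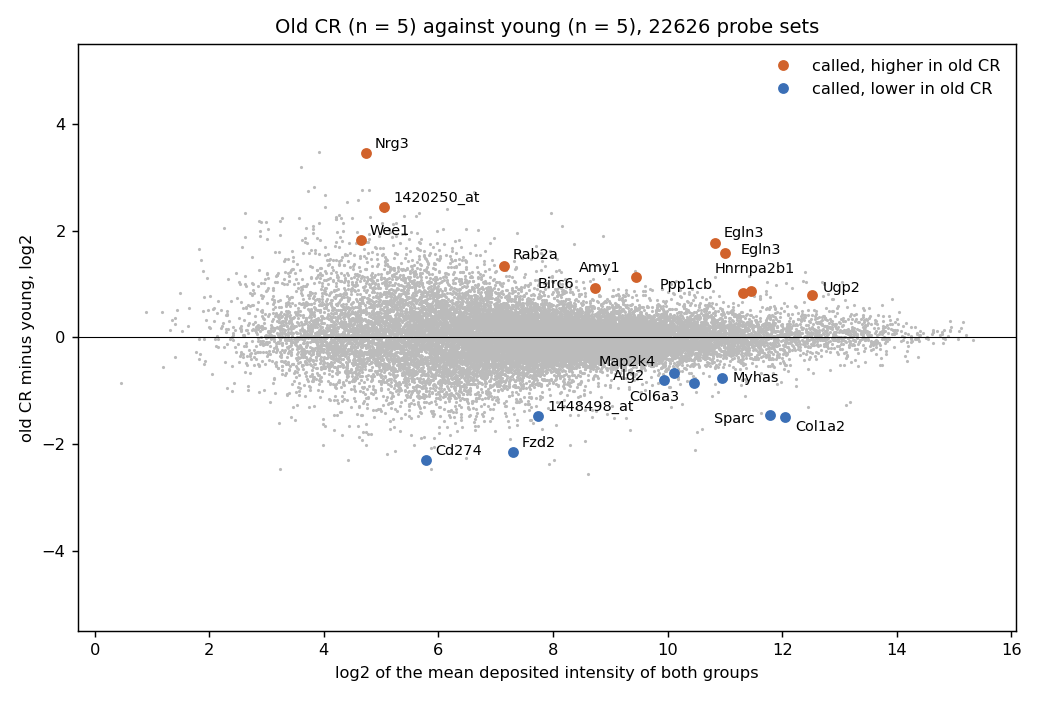
Difference between old CR and young muscle (old CR minus young, log2, 5 arrays in each group) against the log2 of the mean intensity for 22626 probe sets (grey points). Orange points are the 11 called probe sets that were higher in old CR mice and blue points the 9 that were lower. The called probe sets of high intensity differ by at least 0.67 in either direction, while Nrg3, Wee1 and 1420250_at, with the largest rises, lie at low intensity.

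Egln3 had the largest called rise among the bright probe sets, at both of its probe sets. It encodes a prolyl hydroxylase that marks the hypoxia-inducible factors for degradation when oxygen is present, and it is itself a known target of those factors. At 1418649_at the young mice had intensities of 1062, 839, 993, 973 and 1072, and the old CR mice had 4239.9, 4104, 2759, 2012 and 2348. Every old CR mouse was thus above every young mouse, with old CR replicates 2 and 3 the highest. The mean rose from 988 ± 93.3 in the young to 3093 ± 1021 in the old CR mice (means ± SD of 5 mice), which is a log2 difference of 1.59 (SE 0.21, limma adjusted p = 0.0105), while old mice on the control diet had a mean of 1234. At 1418648_at the mean rose from 786 ± 177 in the young to 2832 ± 1105 in the old CR mice, a log2 difference of 1.78 (limma adjusted p = 0.0272). Here too the groups did not overlap, and the old mean was 823.

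The promoter of Egln3 is shown because the gene had the largest called rise among the bright probe sets and because hypoxia-inducible factors bind a short sequence with the core ACGTG. The window runs from 250 bases before to 50 bases after the annotated start of the gene (RefSeq, GRCm38.p6, chr12:54203825-54204124, minus strand), written 5′ to 3′ in the direction of the gene. Capitals mark ACGTG on either strand.
Egln3: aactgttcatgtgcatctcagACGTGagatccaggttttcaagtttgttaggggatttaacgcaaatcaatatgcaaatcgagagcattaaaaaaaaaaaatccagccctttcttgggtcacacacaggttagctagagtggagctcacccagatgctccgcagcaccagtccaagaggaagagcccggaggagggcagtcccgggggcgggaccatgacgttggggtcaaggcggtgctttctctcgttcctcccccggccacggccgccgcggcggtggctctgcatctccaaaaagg
The core occurs once, beginning 229 bases before the start. It occurs on either strand in 19.6% of the 32851 promoter windows of the same length in the table, so a single match is common.

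Ugp2 and Ppp1cb, both linked to the making of glycogen, rose. Ugp2, the enzyme that makes UDP-glucose, the building block of glycogen, was called at 1434486_x_at. The young mice had 4308, 4116, 4376, 3842 and 4925 and the old CR mice had 7658, 8058, 7124, 6955 and 7307. The lowest old CR value was far above the highest young value, and the mean rose from 4313 ± 400.1 in the young to 7420.4 ± 442 in the old CR mice, a log2 difference of 0.79 (SE 0.11, limma adjusted p = 0.0136), with old mice between them at 5593. The suffix x marks a probe set with probes that may also match other transcripts, but the other 4 probe sets of Ugp2 were also higher, by 0.31 to 0.77 on the log2 scale, each at an unadjusted p under 0.05 and none called. Ppp1cb, a catalytic subunit of protein phosphatase 1, which activates glycogen synthase, was called at 1433540_x_at. Its values were 2125, 1676, 1839, 1645 and 1836 in the young and 3016, 3217, 3235, 3640.1 and 3109.6 in the old CR mice. There was again no overlap, and the mean rose from 1824 ± 190.4 in the young to 3244 ± 239 in the old CR mice, a log2 difference of 0.83 (SE 0.11, limma adjusted p = 0.0129). The other 3 probe sets of Ppp1cb had log2 differences of 0.24 to 0.48, with no overlap at 1426205_at (limma adjusted p = 0.102, not called).

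The remaining glycogen and glucose genes had no common direction. Of 25 measured genes of glycolysis and glycogen metabolism, a list that does not hold Ugp2 or Ppp1cb, none was called, 3 were higher and 3 lower at an unadjusted p under 0.05, and the list median was -0.06 on the log2 scale. Ppp1r3c, which brings protein phosphatase 1 to glycogen, had 5202, 5510.1, 6995, 4281 and 3639 in the young and 6038, 6709, 10219, 9869.7 and 12528 in the old CR mice (log2 difference 0.81, limma adjusted p = 0.168, not called). Old CR replicates 5, 6 and 7 lay above all young mice, and replicates 2 and 3 lay within the young range. Phka1, a regulatory subunit of the phosphorylase kinase that drives glycogen breakdown, was lower without overlap at 3 probe sets, with log2 differences of -0.92, -0.88 and -0.60 (limma adjusted p = 0.111, 0.142 and 0.212, none called). At 1435567_at the young mice had 5706 to 7103 and the old CR mice 1922 to 4666. The other lower members were Pgm1, which interconverts glucose phosphates (-0.51), and Pgam2, the phosphoglycerate mutase of muscle (-0.36), and the other higher ones Gbe1, the glycogen branching enzyme (0.70), and Fbp2, the fructose bisphosphatase of muscle (0.46). None was called (limma adjusted p = 0.184, 0.273, 0.354 and 0.309). Pygm, the glycogen phosphorylase of muscle, had a log2 difference of -0.04 and Gys1, the glycogen synthase, 0.18, neither at an unadjusted p under 0.05.

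The other called rises at bright probe sets were in Hnrnpa2b1, Amy1 and Birc6. Hnrnpa2b1, an RNA-binding protein of the spliceosome, had 1882, 1918, 1802, 1698 and 2679 in the young and 4018, 3482, 3730.2, 3481 and 3324 in the old CR mice. The old CR values lay close together above all young values, of which replicate 5 was the highest, and the log2 difference was 0.87 (SE 0.14, limma adjusted p = 0.0411). Its other 3 probe sets had 0.36 to 0.51 and were not called. Amy1, an amylase that cleaves starch and glycogen, rose from 449 ± 131 in the young to 951 ± 120.2 in the old CR mice (log2 difference 1.12, limma adjusted p = 0.0472). Old mice on the control diet, with a mean of 1115, were near the old CR level. Birc6, a large ubiquitin ligase that inhibits apoptosis, rose from 290.2 ± 29.5 in the young to 559.9 ± 142 in the old CR mice (log2 difference 0.92, limma adjusted p = 0.0497). Its other 2 probe sets had log2 differences of 0.43 and -0.19, were dimmer and overlapped.

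The largest called rises by fold, those of Nrg3, 1420250_at and Wee1, were at dim probe sets. Rab2a, whose rise was smaller than that of Egln3, was also called at a dim probe set. Nrg3, a ligand of the ErbB4 receptor, had 2.77, 8.59, 4.87, 4.13 and 3.08 in the young and 31.2, 47.4, 51.5, 65.3 and 46.6 in the old CR mice (log2 difference 3.45, limma adjusted p = 0.0093). Wee1, a kinase that restrains cell division, had 8.66 to 13.1 in the young and 14.9 to 60.5 in the old CR mice (log2 difference 1.83, adjusted p = 0.0423 from limma). Rab2a, a small GTPase of transport between the endoplasmic reticulum and the Golgi apparatus, had 67.95 to 98.2 and 176 to 239 (log2 difference 1.34, adjusted p = 0.00782 from limma). The young values of these genes are far under the array medians, where the size of a fold change depends on how the array software subtracts background. Their other probe sets gave smaller differences: 1416773_at of Wee1 had 0.06, 1460289_at of Nrg3 had 0.38, and the other 6 probe sets of Rab2a had -0.28 to 0.51, none of them called. The probe set 1420250_at, for which the annotation gives no symbol, rose from 10.2 ± 2.90 in the young to 56.4 ± 18.01 in the old CR mice (log2 difference 2.44, limma adjusted p = 0.0093).

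Among the called falls, 3 were in genes of the extracellular matrix. Col1a2, a chain of type I collagen, the main fibrillar collagen of tendon and of the tissue around muscle fibers, had 4309.8, 4803, 8225, 8199.8 and 5776 in the young and 2647, 1679, 2055, 2303 and 2168 in the old CR mice. The highest old CR value was well below the lowest young value, and the mean fell from 6263 ± 1856 in the young to 2170.3 ± 353 in the old CR mice, a log2 difference of -1.49 (SE 0.25, limma adjusted p = 0.0472). Sparc, a collagen-binding protein needed for the assembly of collagen fibers, had 4039, 3714, 6083, 7366 and 4959 in the young and 2339.9, 1804, 1644, 1685 and 1785 in the old CR mice at 1416589_at. The old CR mice were lower without exception, with replicate 2 the highest of them, and the log2 difference was -1.46 (SE 0.25, limma adjusted p = 0.0497). At its second probe set, 1448392_at, Sparc had a log2 difference of -0.79 without overlap (limma adjusted p = 0.125, not called). Col6a3, a chain of the type VI collagen that links the basement membrane to the surrounding matrix, fell from 1828 ± 281 in the young to 1006 ± 133 in the old CR mice (log2 difference -0.86, SE 0.15, limma adjusted p = 0.0472). The second probe set of Col1a2 had a log2 difference of -2.11 but its groups overlapped (limma adjusted p = 0.117). The old mice on the control diet lay closer to the old CR than to the young mice at these 3 genes, with means of 2696 for Col1a2, 2612 for Sparc and 1212 for Col6a3.

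**Figure D2:**
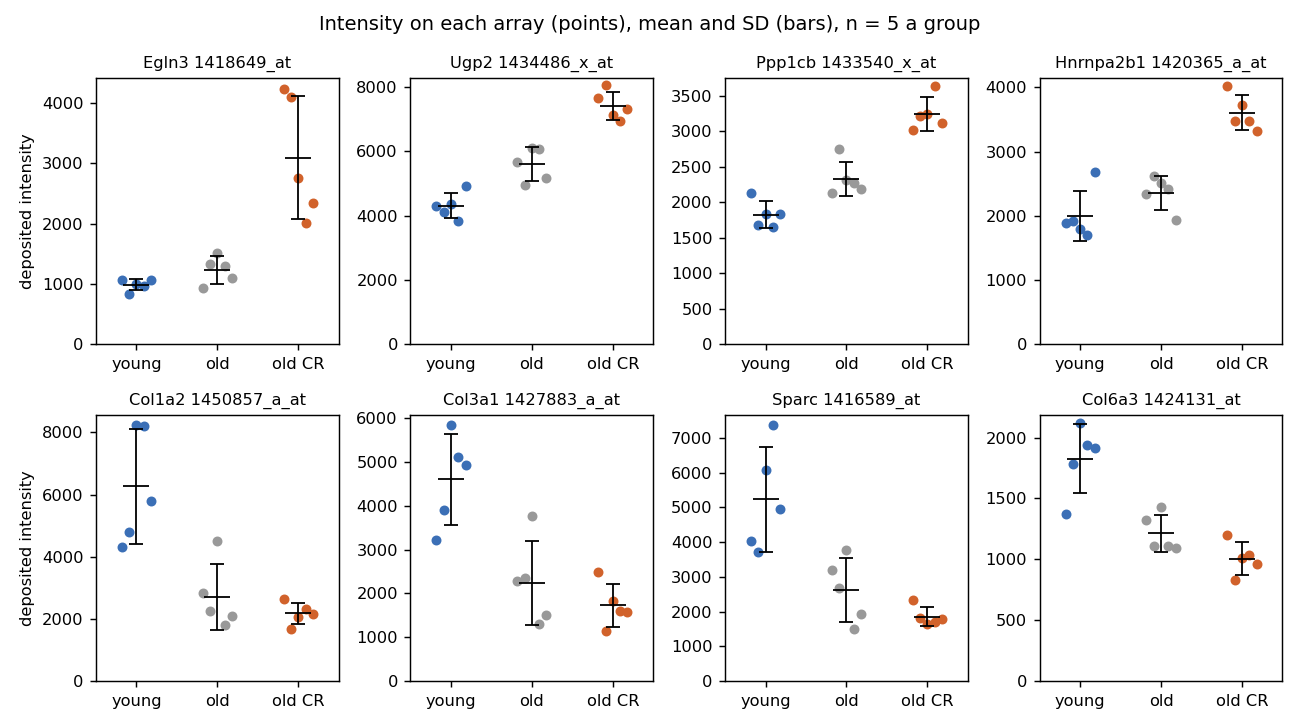
Deposited intensity of 8 probe sets on each array (points) in young, old and old CR mice, with the mean and SD of each group (black bars, n = 5). The 5 old CR values lie above the 5 young values for Egln3, Ugp2, Ppp1cb and Hnrnpa2b1 and below them for Col1a2, Col3a1, Sparc and Col6a3. Of these 8 probe sets that of Col3a1 was not called (limma adjusted p = 0.0701).

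The other called falls were in genes of different roles. Alg2, a mannosyltransferase of N-glycan assembly, had 1280.2, 1183, 1333, 1180.1 and 1199 in the young and 548, 759, 716, 731 and 820.0 in the old CR mice, a log2 difference of -0.80 (limma adjusted p = 0.0286), with old mice at 1131, near the young level. Myhas, an antisense RNA from the cluster of myosin heavy chain genes, fell from 2486 ± 259 in the young to 1468 ± 216 in the old CR mice (log2 difference -0.77, adjusted p = 0.0472 from limma), with old mice at 2864. Map2k4, a kinase that activates the stress kinase JNK, fell from 1363 ± 145 in the young to 855 ± 75.3 in the old CR mice (log2 difference -0.67, adjusted p = 0.0472 from limma), while its second probe set had -0.15 and was not called. Cd274, which encodes the immune checkpoint ligand PD-L1, is dim: the young mice had 73.6, 102, 116, 100.3 and 66.9 and the old CR mice 17.9, 17.5, 25.9, 19.9 and 12.2 (log2 difference -2.31, adjusted p = 0.00782 from limma). The old mice, at 107, were near the young mice. Fzd2, a Wnt receptor, fell from 251 ± 78.6 in the young to 63.8 ± 42.00 in the old CR mice (log2 difference -2.15, adjusted p = 0.0423 from limma), but its other probe sets had -0.18 and -0.51 and were not called. The probe set 1448498_at, with no symbol in the annotation, fell from 316 ± 85.3 in the young to 111 ± 15.2 in the old CR mice (log2 difference -1.48, adjusted p = 0.0423 from limma).

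Of the 20 calls, 6 held when any 1 of the 15 arrays was left out, those of Egln3 at 1418649_at, Ppp1cb, Cd274, Nrg3, Rab2a and 1420250_at. The call of Ugp2 ended only without old CR replicate 3 (limma adjusted p = 0.0505). The second Egln3 probe set lost its call without young replicates 1, 2, 3 and 5, old replicate 2 and old CR replicates 2 and 3 (adjusted p up to 0.0682 from limma). The falls of the matrix genes were closer to the threshold. Sparc remained called only without old replicate 4, Col1a2 only without old replicates 3 or 4 and Col6a3 only without young replicate 1 or old replicate 4, and each ended without any other array, with limma adjusted p up to 0.136 for all 3. Hnrnpa2b1 remained called without young replicate 5, old replicates 4 and 5 or old CR replicate 7 (adjusted p up to 0.12 otherwise), Amy1 without young replicate 3 or old replicate 4 (up to 0.123), Birc6, Wee1, Fzd2 and Myhas without old replicate 4 or old CR replicate 7 (up to 0.136), and Map2k4 without old replicate 4 (up to 0.105), all from limma. Alg2 remained called without old replicates 1, 3 and 4 or old CR replicates 2 and 7 (up to 0.0761) and 1448498_at without old replicates 1, 3 and 4 or old CR replicate 7 (up to 0.121).

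Other settings moved the same calls. In a fit of the young and old CR arrays alone, only the calls of Cd274, Nrg3, Rab2a and 1420250_at held, and the other 16 had limma adjusted p up to 0.127. With the 3' minus 5' difference in the model 6 of the 20 held, those 4 and the calls of Egln3 at 1418649_at and Ugp2. With each array centered on its median 11 held, and the 9 that ended included Col1a2, Sparc, Col6a3, Hnrnpa2b1, Amy1 and Birc6 (limma adjusted p up to 0.0794). Col1a2 also ended with array weights (0.0503), Map2k4 with quantile normalization (0.051) and Wee1 on log2(value + 50) (0.0655). With a variance trend and robust moderation all 20 held.

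Genes of the collagen matrix were lower in old CR than in young muscle as a group. Of 13 measured fibrillar and type VI collagens and their partners, 11 had a lower mean, 2 were called (Col1a2 and Col6a3), 9 were lower at an unadjusted p under 0.05 (6.26% of all probe sets and 921 of all 12393 genes by brightest probe set were) and 6 were lower without overlap (1.89% of all probe sets and 298 of those genes). None was higher at that p, and the list median was -0.66 on the log2 scale, against -0.01 over all probe sets. Col3a1, the collagen of fine reticular fibers, had 3222, 3913, 5840.0, 5124 and 4925 in the young and 2487, 1147, 1838, 1598 and 1583 in the old CR mice. All old CR values were below all young values (log2 difference -1.43, limma adjusted p = 0.0701, not called), as they were at its second probe set (-1.24). Col1a1, the partner of Col1a2 in type I collagen, had 1550.0 to 3951 in the young and 433 to 1178 in the old CR mice (log2 difference -1.71, limma adjusted p = 0.0904, not called). Col5a2 and Col5a3, chains of the type V collagen that starts fiber growth, had log2 differences of -0.97 and -0.72 without overlap, neither called. Col12a1 and Col2a1, the 2 with a higher mean on the log2 scale, had differences of 0.19 and 0.12 and overlapped between the groups.

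Without young replicate 3, which stood apart from its group, 7 of the 13 collagens were lower at an unadjusted p under 0.05, the fewest when any 1 array was left out, and the list median was -0.69. When the 3' minus 5' difference entered the fit as a covariate, 7 were lower and the median was -0.60. In neither setting was any member higher at that p. In a bulk sample, fewer cells of a type and less RNA per cell cannot be told apart. The levels of the other fibroblast markers are given with the cell types.

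The promoter of Col1a2 is shown because type I collagen is the main collagen of this matrix and its fall was called. Its window is chr6:4505368-4505667 on the plus strand (RefSeq, GRCm38.p6, from 250 bases before to 50 after the annotated start), and capitals mark CCAAT, the binding sequence of the factor NF-Y, on either strand.
Col1a2: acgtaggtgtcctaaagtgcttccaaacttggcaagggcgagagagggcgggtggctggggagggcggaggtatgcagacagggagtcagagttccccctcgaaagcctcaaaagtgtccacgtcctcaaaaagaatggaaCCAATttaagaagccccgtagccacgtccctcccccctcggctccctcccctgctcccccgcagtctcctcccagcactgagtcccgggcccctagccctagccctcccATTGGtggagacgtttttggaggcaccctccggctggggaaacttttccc
The motif occurs 2 times, once as printed, beginning 109 bases before the start, and once on the opposite strand at the start itself. CCAAT occurs on either strand in 37.4% of the 32851 windows.

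The genes of the basement membrane were also lower. Of 17 measured members, each read by its brightest probe set, none was called, 10 were lower and none higher at an unadjusted p under 0.05, 6 were lower without overlap, and the list median was -0.45. Of all 12393 genes read so, 921 were lower at that p and 298 without overlap. Sparc counts in the basement membrane list by its second probe set. Col4a1 and Col4a2 encode the 2 chains of the commonest type IV collagen. Col4a1 had 1841, 1781, 2625, 1955 and 1449 in the young and 964, 631, 843, 1237 and 1092 in the old CR mice at 1452035_at. The groups did not overlap there (log2 difference -1.03, limma adjusted p = 0.0709) nor at 1426348_at (-0.82, adjusted p = 0.0533 from limma, not called). Col4a2 had a log2 difference of -0.74, also without overlap (limma adjusted p = 0.157, not called). Col15a1, a collagen found beneath the basement membrane of muscle and capillaries, had -1.51, Lamc1, the laminin chain common to most laminins, -0.56, and Nid2, a nidogen that links laminin to type IV collagen, -1.18. The groups did not overlap at these 3 genes (limma adjusted p = 0.0593, 0.0709 and 0.173, not called). Lamc1 varied little within the groups, from 942 to 1291 in the young and from 728 to 799 in the old CR mice. The old mice on the control diet had a mean of 1019 for Lamc1 and 1797 for Col4a1 at 1452035_at, both closer to the young than to the old CR mean. At 1426348_at of Col4a1 the old mean, 1198, was closer to the old CR mean of 1063 than to the young mean of 1861.

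Col4a1 and Col4a2 are read in opposite directions, with annotated starts 21 bases apart (RefSeq, GRCm38.p6), so that the bases before the start of Col4a1 lie within Col4a2. The Col4a1 window, which holds both starts, is shown, chr8:11312777-11313076 on the minus strand, with CCAAT on either strand in capitals.
Col4a1: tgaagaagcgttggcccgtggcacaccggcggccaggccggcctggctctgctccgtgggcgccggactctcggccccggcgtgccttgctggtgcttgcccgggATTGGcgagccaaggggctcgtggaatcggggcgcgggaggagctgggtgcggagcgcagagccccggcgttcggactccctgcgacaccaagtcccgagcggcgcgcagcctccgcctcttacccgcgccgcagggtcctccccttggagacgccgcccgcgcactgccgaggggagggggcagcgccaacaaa
The motif occurs once, on the strand opposite to Col4a1, beginning 145 bases before its start.

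Genes that process collagen showed smaller differences. Of 23 measured genes of collagen processing and matrix remodeling, none was called, 6 were lower and none higher at an unadjusted p under 0.05, 3 were lower without overlap, and the median was -0.26, or -0.11 without young replicate 2. Of all 12393 genes by brightest probe set, 921 were lower at that p and 298 without overlap. Serpinh1, the collagen chaperone of the endoplasmic reticulum, had a log2 difference of -0.58, Loxl1, a crosslinking enzyme, -0.44, Timp3, an inhibitor of matrix proteases, -0.51, and Timp2, another one, -0.46 (limma adjusted p of 0.191 to 0.3, none called). Fn1, fibronectin, had -0.77 with overlapping groups. Of 10 measured small proteoglycans, which coat collagen fibers, 8 had a lower mean, and the median was -0.34. At an unadjusted p under 0.05, 3 were lower and 2 higher. Lum (lumican) and Aspn (asporin) had the higher means, with log2 differences of 0.58 and 0.60, and Prelp, Fmod (fibromodulin) and Bgn (biglycan) the lower ones, with -0.66, -0.63 and -0.39. None of the 5 was called.

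**Figure D3:**
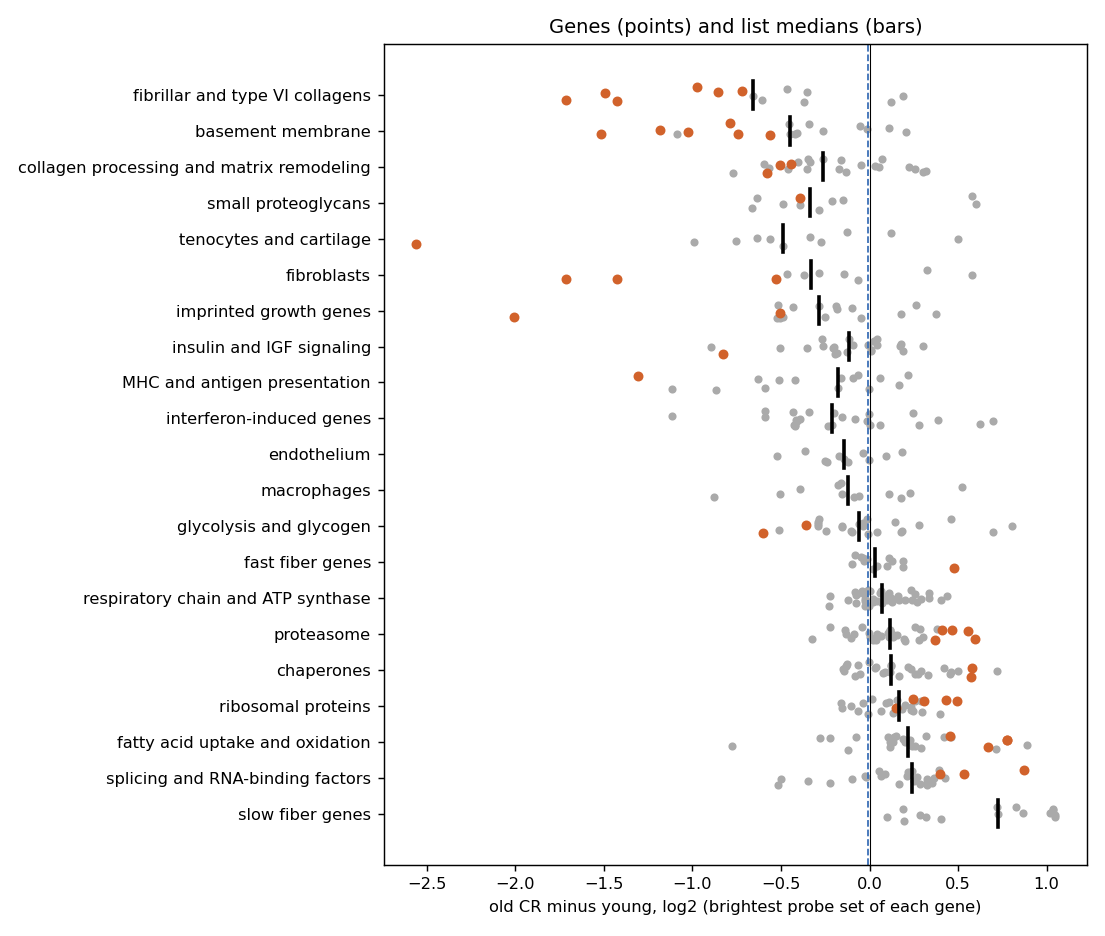
Log2 difference (old CR minus young) of each measured gene of 21 lists, by its brightest probe set. Orange points are genes whose 5 old CR and 5 young values do not overlap, grey points the others, black bars the list medians and the dashed line the median of all probe sets. Among the lists drawn, the collagen, basement membrane and tendon lists have the lowest medians, from -0.66 to -0.45, and the slow fiber list the highest, 0.73. The list of skin markers, not drawn, had a median of -0.55.

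Slow fiber genes had higher means in old CR muscle, with wide spread between mice. All 15 measured genes had a higher mean, with a median log2 difference of 0.73, 7 at an unadjusted p under 0.05, none called and none without overlap. Of all 12393 genes by brightest probe set, 5711 had a higher mean and 649 were higher at that p. Tnnc1, the slow and cardiac troponin C, had 3429, 8529, 2917, 6817 and 7248 in the young and 12746, 12772, 9943, 8287 and 11812 in the old CR mice (log2 difference 1.05, SE 0.33, limma adjusted p = 0.218). The young values spread more than 2-fold, with replicates 1 and 3 low, and only the lowest old CR value, that of replicate 6, fell below the highest young one. Tnni1, the slow troponin I, had 1274 to 5620.2 in the young and 4715 to 9278 in the old CR mice (1.05, limma adjusted p = 0.307). Myh7, the slow myosin heavy chain, had a log2 difference of 0.73, Myl2, the slow regulatory light chain, 0.72, and Tpm3, the slow tropomyosin, 1.04. The count of 7 was 3 without young replicate 1, whose values were the lowest for several of these genes, 3 without old CR replicate 2, with the highest values for several, and 4 without young replicate 3. The median was then 0.47, 0.57 and 0.70.

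The median of the fast fiber genes differed little and depended on 1 array. Of 14 measured genes 8 had a higher mean, none was called, and the median log2 difference was 0.03. Without old CR replicate 2 all 14 had a higher mean and the median was 0.17. Myh1, the myosin heavy chain of type IIX fibers, was the exception, with 12752, 15587, 13479, 13851 and 14924 in the young and 17441, 19281, 20431, 21646 and 19482 in the old CR mice. All old CR values were above the young ones (log2 difference 0.48, limma adjusted p = 0.142, not called). Myh4, the heavy chain of type IIB fibers, had -0.03 and Myh2, that of type IIA fibers, 0.19. Among 27 Z-disc, sarcomere and stretch genes 7 were higher and 2 lower at an unadjusted p under 0.05, none called, and 4 were higher without old CR replicate 2. At that p, 649 of all 12393 genes by brightest probe set were higher and 921 lower. Actn2, the alpha-actinin of the Z-disc, had 0.57, Des (desmin) 0.54 and Pdlim5 0.41 without overlap, while Tmod1 and Tmod4, tropomodulins that cap thin filaments, had -0.29 and -0.32 without overlap.

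Genes of fatty acid uptake and oxidation had higher means. Of 26 measured genes 21 had a higher mean, none was called, 8 were higher and none lower at an unadjusted p under 0.05, 4 were higher without overlap, and the median was 0.21. Of all 12393 genes by brightest probe set, 649 were higher at that p and 205 without overlap. Decr1, a reductase needed to oxidize unsaturated fatty acids, had 2376, 1925, 2143, 2351 and 2778 in the young and 5014, 3144, 4004, 3574 and 4166 in the old CR mice. Every old CR value was higher (log2 difference 0.78, limma adjusted p = 0.0667, not called). Hadha, a subunit of the mitochondrial trifunctional protein, had 0.67, Cd36, the fatty acid transporter, 0.78, and Eci1, an enoyl-CoA isomerase, 0.45, all without overlap, and Echs1, an enoyl-CoA hydratase, had 0.72 with overlap. Old CR replicate 2 had the highest value of the group at these 5 genes. Without it 7 members were higher and 1 lower at an unadjusted p under 0.05, and the median was 0.12 in place of 0.21. Without young replicate 3 the count was 8 and the median 0.20. Cpt2, an acyltransferase of the inner mitochondrial membrane, and Acadm, the medium-chain dehydrogenase, had 0.12 and 0.10, within the spread.

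Pdk4, Ucp3 and Angptl4, which respond to feeding and fasting in muscle, differed between mice of the same group far more than between the groups. Pdk4, the kinase that switches off pyruvate dehydrogenase when fat is burned, had 1663, 699.7, 6606, 3239 and 1656 in the young and 864, 619, 5237, 5226 and 6182 in the old CR mice. Old CR replicates 2 and 3 were low and replicates 5, 6 and 7 high, and among the young mice replicate 3 was the highest (log2 difference 0.23, SE 0.81). Ucp3, an uncoupling protein of muscle mitochondria, had 424, 467, 1387, 1561 and 1882 in the old CR mice, and Angptl4, an inhibitor of lipoprotein lipase, had 31.6, 65.6, 324, 522 and 358. The same 2 old CR mice were low at both genes. Smox, the spermine oxidase, also had its low values there, at 598, 1738, 6013, 5986 and 5537, against 5958 to 9681 in the young mice (log2 difference -1.30, limma adjusted p = 0.343, not called).

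**Figure D4:**
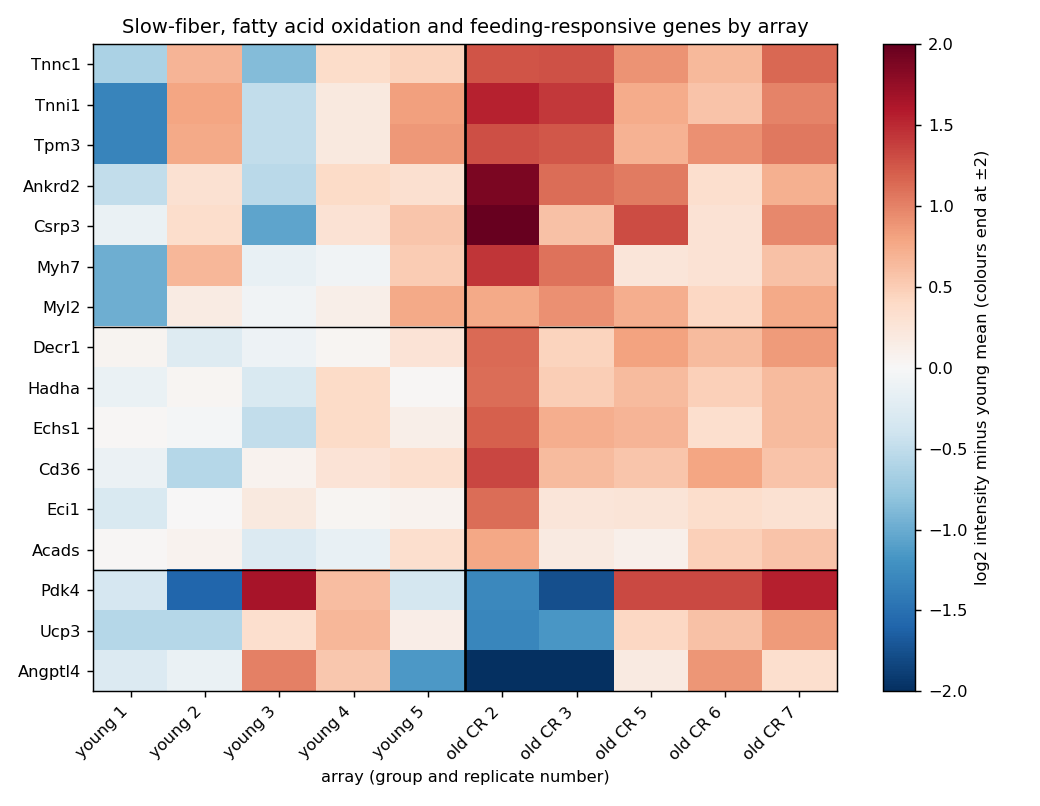
Log2 intensity of 16 genes on the 5 young and 5 old CR arrays relative to the young mean of each gene, with colours ending at a difference of 2 in either direction. From the top, the blocks are slow fiber genes, genes of fatty acid oxidation, and the feeding-responsive genes Pdk4, Ucp3 and Angptl4. Slow fiber and fatty acid genes are mostly above the young mean in all 5 old CR mice, most strongly in replicate 2, while the last block is low in old CR replicates 2 and 3 and near or above the young mean in replicates 5, 6 and 7.

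Downstream of fatty acid oxidation few genes differed. Of 22 measured genes of pyruvate dehydrogenase and the citric acid cycle, Idh2, the mitochondrial isocitrate dehydrogenase that yields NADPH, was the only one with an unadjusted p under 0.05. It had 3255, 6923, 2434, 5453 and 5557 in the young and 10528, 8269.5, 8253, 7930.4 and 9436 in the old CR mice. The groups did not overlap, although the young mice spread over more than 2-fold (log2 difference 1.003, limma adjusted p = 0.159, not called). Of the 22 genes 9 had a higher mean, with a median of -0.02. Without old CR replicate 3, 3 were higher at that p, 17 had a higher mean and the median was 0.05. Of 41 genes of the respiratory chain and ATP synthase 3 were higher at an unadjusted p under 0.05, Ndufv1 (0.44), Atp5j (0.40) and Ndufa4 (0.34), none of them called. The count was 1 without young replicate 2 and 5 without old CR replicate 3. In lipid synthesis, with 19 genes measured and none called, Acly, which makes cytosolic acetyl-CoA, had a log2 difference of 0.77 and Srebf1, the transcription factor of fatty acid synthesis, -0.56 (limma adjusted p = 0.221 and 0.257). None of 13 genes of cholesterol synthesis had an unadjusted p under 0.05.

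Genes of protein turnover had slightly higher means. Of 33 measured proteasome subunits none was called, 7 were higher and none lower at an unadjusted p under 0.05, 5 were higher without overlap, and the median was 0.12. Of all 12393 genes by brightest probe set, 649 were higher at that p and 205 without overlap. This is also the background for the ribosomal proteins and chaperones below. Psmd2, a large subunit of the regulatory cap, had 3925, 3239, 2992, 3654 and 2963 in the young and 4526, 5052, 4727, 4359 and 4362 in the old CR mice (log2 difference 0.46, limma adjusted p = 0.125). The groups did not overlap. The ATPases of the cap Psmc5, Psmc1 and Psmc6 had 0.59, 0.56 and 0.37, and the core subunit Psmb3 0.41, also without overlap, none called. Of 26 measured ribosomal proteins none was called, 7 were higher and none lower at that p, 4 without young replicate 4, and 5 were higher without overlap, with a median of 0.17, which was 0.10 after quantile normalization. Rpl11 had 4015 to 4369.8 in the young and 4944 to 5361 in the old CR mice (log2 difference 0.31, limma adjusted p = 0.212). Of 30 chaperones 5 were higher and none lower at that p (3 without old CR replicate 2), among them Hspa9, the mitochondrial Hsp70, with 0.58, and Hsp90b1, the Hsp90 of the endoplasmic reticulum, with 0.57, both without overlap and not called. Among 25 genes of endoplasmic reticulum stress, Canx, the chaperone calnexin, had 992, 777, 789, 634 and 926 in the young and 1951, 1806, 1470.1, 1393 and 1098 in the old CR mice. Its log2 difference was 0.89 without overlap (adjusted p = 0.0593 from limma, not called). Of that list 4 were higher and 3 lower at an unadjusted p under 0.05, with 1 lower without young replicate 4 or old CR replicate 7. Chac1, which degrades glutathione, had -1.78 with overlap (limma adjusted p = 0.258, not called). The autophagy gene Map1lc3a had 3535, 3533, 2493, 3066 and 3174 in the young and 7521, 5658, 5153, 5695 and 6171 in the old CR mice. All old CR mice were higher (log2 difference 0.93, adjusted p = 0.0709 from limma, not called), and Ulk1, a kinase that starts autophagy, was lower without overlap (-0.54).

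RNA-binding proteins tended to higher means. Of 27 measured splicing and RNA-binding factors 20 had a higher mean, Hnrnpa2b1 was called, 4 were higher and 2 lower at an unadjusted p under 0.05, and the median was 0.24. None was lower at that p without young replicates 1 or 3 or old CR replicate 2, or with the 3' minus 5' difference in the model. Of all 12393 genes by brightest probe set, 5711 had a higher mean and 4 were called higher. At an unadjusted p under 0.05, 649 of them were higher and 921 lower. Tra2a and Hnrnpd had 0.53 and 0.40 without overlap, and Celf2 and Tra2b, which were lower, had -0.51 and -0.35. Srsf1, another splicing factor, gave unlike values at its probe sets: 1428100_at had 0.96 without overlap, while the other 5 had -0.44 to 0.36. Qk, an RNA-binding protein of muscle and myelin, had 160.1, 228, 252, 216 and 405 in the young and 785, 491, 645, 577 and 605 in the old CR mice at 1417073_a_at (log2 difference 1.35, adjusted p = 0.0593 from limma, not called). The brighter probe sets of Qk had -0.04 and 0.22 and overlapped.

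In the lists of growth and immune genes more means were lower than higher, as over all genes, and no member was called. A lower mean was found for 14 of 23 insulin and IGF genes and 14 of 17 imprinted genes. It was found for 12 of 15 MHC and 18 of 25 interferon-induced genes. Of all 12393 genes by brightest probe set, 6682 had a lower mean, and 921 were lower at an unadjusted p under 0.05. The number of insulin and IGF genes with a lower mean was near that background. Of 23 genes of insulin and IGF signaling 3 were lower and none higher at an unadjusted p under 0.05. Igfbp5, an IGF-binding protein of muscle, had 5301, 4897, 7839, 4311 and 3645 in the young and 2199.8, 2993, 3077, 3006 and 2972 in the old CR mice at 1452114_s_at. The old CR mice were all lower (log2 difference -0.83, limma adjusted p = 0.108), as at 1422313_a_at (-1.03), while the old mice had a mean of 7479.7, above both groups, at the first and of 703, between them, at the second. Igf1 had a log2 difference of -0.90 and Igf2 of -0.51, both overlapping. Of 17 imprinted growth genes 5 were lower and none higher at that p (3 lower without young replicate 4). Nnat (neuronatin), an imprinted gene, had 461, 351, 338, 969.9 and 367 in the young and 87.7, 47.9, 129.9, 142 and 237 in the old CR mice. The highest old CR value lay below the lowest young one (log2 difference -2.01, SE 0.42, limma adjusted p = 0.0807, not called). Meg3, an imprinted long RNA, had -0.51 without overlap.

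Of 15 genes of MHC and antigen presentation 5 were lower and none higher at an unadjusted p under 0.05. H2-Aa, a chain of MHC class II, had 941, 2039, 1582, 1706 and 1294 in the young and 449, 439, 601, 795 and 774 in the old CR mice. There was no overlap (log2 difference -1.30, limma adjusted p = 0.0709, not called), and the old mice had a mean of 2485. A second probe set of H2-Aa had -0.51 with overlap. Cd74, the invariant chain of class II, and H2-Eb1, another class II chain, had -0.87 and -0.63, with overlap and not called. Of 25 interferon-induced genes 3 were lower at that p and none higher, with 6 lower without old CR replicate 2 and 1 without old CR replicates 5, 6 or 7. Cd274, called above, is also induced by interferon.

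Among 21 genes of the neuromuscular junction and denervation, 5 were higher and 1 lower at an unadjusted p under 0.05, and none was called. The 5 became 2 without old CR replicate 2 and 3 without young replicates 1 or 4 or old CR replicate 7. At that p, 649 of all 12393 genes by brightest probe set were higher and 921 lower. Chrna1, the alpha subunit of the muscle acetylcholine receptor, had 416, 464, 455, 428 and 480.2 in the young and 862, 888, 658, 752 and 714 in the old CR mice. The young values were tight and all old CR values lay above them (log2 difference 0.78, adjusted p = 0.0709 from limma, not called). Chrnb1, the beta subunit, had 0.48. Runx1, a transcription factor known to be induced in denervated muscle, was lower at its brightest probe set, with 498, 491, 340.3, 496 and 552 in the young and 218, 329.6, 157, 204 and 101 in the old CR mice. The log2 difference was -1.32 without overlap (limma adjusted p = 0.115, not called), and its 4 dimmer probe sets had -0.69 to 0.42. Of 26 p53 targets and regulators, a list that includes genes the study chose on these samples and is no independent evidence of a direction, 3 were higher and 2 lower at that p, and 1 was higher without young replicate 2. Cdkn1a (p21), which halts the cell cycle, had 309 to 444 in the young and 510.0 to 698 in the old CR mice (log2 difference 0.65, limma adjusted p = 0.186). Gadd45a, a DNA damage response gene, had 0.83, and Mcl1, an inhibitor of apoptosis, 0.31. The groups did not overlap at these 3 genes, none of which was called, and the old mice had means of 1122 for Cdkn1a and 489 for Gadd45a, above both groups.

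In the remaining functional lists no member was called and the medians lay between -0.13 and 0.18. Of 21 calcium handling genes 2 were higher and 2 lower at an unadjusted p under 0.05, among them Asph, whose locus also encodes the calcium-release protein junctate, with -0.67 without overlap, and Sln (sarcolipin), an inhibitor of the calcium pump, with 1.90 and wide overlap. None was higher without old CR replicate 2. Of 24 antioxidant enzymes 1 was higher, Gstm2 (0.80), and 3 lower, Gclc, Gclm and Gpx7 (-0.56, -0.63 and -0.37). Of 20 clock genes 3 were higher and 2 lower, of 26 immediate early genes 2 and 2, of 22 glucocorticoid-responsive genes 2 and 0, of 16 genes of atrophy, FoxO and autophagy 3 and 2, of 23 myogenic and regeneration genes 3 and 4, of 27 cell cycle genes 1 and 1, of 22 chemokine and complement genes 0 and 2, of 16 metallothionein and iron genes 1 and 2, and of 7 polyamine genes 1 and 1. The background shares of 5.83% and 6.26% correspond to at most about 2 members in each direction in lists of this size. Those shares are over all probe sets. Of all 12393 genes read by their brightest probe set, as in the lists, 649 were higher and 921 lower at that p. Leaving out 1 array left 1 higher clock gene (young replicate 5), 1 lower antioxidant gene (young replicate 4 or old CR replicates 3 or 6) and 2 lower myogenic genes (old CR replicate 6). No immediate early gene was higher without young replicate 3 or old CR replicates 5 or 7. Other counts of 2 fell to 1 in several of these lists when 1 array was left out.

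The bright genes with the largest differences included several outside the lists. Among the brightest 48.1% of probe sets, 376 with 1 gene symbol had no overlap and an unadjusted limma p under 0.01. Aplnr, the apelin receptor of endothelium, had 839, 719, 1470.2, 971 and 951 in the young and 512, 264, 218, 345 and 202 in the old CR mice. The old CR mice were all lower (log2 difference -1.73, adjusted p = 0.0593 from limma, not called), and a second, dimmer probe set had -1.72. Dusp8, a phosphatase of MAP kinases, had -1.29, and Kmt5a, which methylates histone H4, had -1.26 and -0.50 at 2 probe sets. Slc41a3, a magnesium transporter, was lower at 2 probe sets (-1.02 and -0.81), as was Nrep, a regulator of TGF-beta (-1.10 and -0.72). On the higher side, Myo10, an unconventional myosin, had 405, 259.7, 111, 483 and 201 in the young and 724, 599, 663, 652 and 684 in the old CR mice at 1422544_at (log2 difference 1.36, not called). Its other probe sets had 0.14 and 0.02, so the difference rests on 1 probe set. Septin7, a cytoskeletal GTPase, had 1.24, Rasd2, a small G protein, 1.13, Wdr26, a subunit of a ubiquitin ligase, 1.01, Camk2d, a calcium-dependent kinase, 0.999, and Nap1l1, a histone chaperone, 0.77 and 0.88 at 2 of its probe sets, none called. In all, 40 genes had 2 or more bright probe sets without overlap in 1 direction, 22 of them higher and 18 lower in old CR mice. Over all 22626 probe sets, 1.68% were higher and 1.89% lower without overlap. How many genes have 2 or more bright probe sets was not counted, so the 40 have no background share of their own.

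The intensities of markers of other cell types are given beside these results, and in bulk muscle they do not measure cell content. For fibroblasts 10 of 10 markers were measured, 4 were lower and 1 higher at an unadjusted p under 0.05, and their summed intensity was 18950.2 to 28712 in the young and 14617 to 18015 in the old CR mice. The 4 lower ones were Col1a1 and Col3a1, which are also in the collagen list, Thy1 (-0.53) and Dpt (-0.46), the higher one was Lum, and Clec3b and Pi16, which encode no collagen, had 0.32 and -0.14. For tenocytes and cartilage 11 of 13 markers were measured, 4 were lower and 1 higher, with a median of -0.49 and summed intensities of 9089.8 to 13498 and 6176 to 10297. Chad (chondroadherin) had 406, 672, 734, 779 and 659 in the young and 59.8, 78.9, 231, 55.7 and 236 in the old CR mice. The groups did not overlap (log2 difference -2.56, limma adjusted p = 0.123, not called), and the tendon marker Tnmd (tenomodulin) had -0.99 with overlap. Some tendon and fibroblast markers were thus lower together with the matrix genes, and their part in the collagen result was not tested.

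For endothelium, with 11 of 11 markers measured and summed intensities of 6921 to 7969 in the young and 6077 to 7671 in the old CR mice, 9 had a lower mean and the median was -0.14. Only Ramp2 (-0.52) had an unadjusted p under 0.05. Kdr had -0.12, and Pecam1, 1 of the 2 with a higher mean, 0.19. For macrophages 12 of 12 markers were measured, with 4540.3 to 10007 and 5469 to 7477, and only Folr2 (0.52) was under that p. Adgre1 and Cd68 had -0.18 and 0.18. For Schwann cells 7 of 10 markers were measured, with 7267 to 8674 and 4758 to 6934. These sums do not overlap, and the only marker under that p was Pmp22, a myelin protein also found in fibroblasts (-0.52 without overlap and not called). Of the 7, 6 had a lower mean, Mag among them (-0.10), and Sox10 a higher one (0.19). The median was -0.24, or -0.06 without old CR replicate 3. For smooth muscle and pericytes 9 of 9 were measured, with 18989.6 to 23835 and 24816 to 27589.8, which do not overlap, and Des (desmin), which fibers also make, was the only marker under that p.

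For adipocytes 8 of 10 markers were measured, none at an unadjusted p under 0.05, with summed intensities of 18755 to 29544 in the young and 21443 to 28952 in the old CR mice. Adipoq (adiponectin) had a log2 difference of -0.59 and Fabp4 0.30. For skin 11 of 12 markers were measured, none at that p, with 944 to 3876 and 1075 to 1497. The high end in the young came from replicate 1, whose Krt10 (a keratin of the outer skin) was 1378, against 144 to 240.3 in the old CR mice. Of the 11 skin markers 9 had a lower mean. Their median log2 difference was -0.55, and -0.995 to -0.27 under the other settings. For T and NK cells 10 of 12 markers were measured, 1 of them lower at that p (Thy1, which fibroblasts also make), with 1390.3 to 1624 and 1083 to 1297, which do not overlap. For B and plasma cells 9 of 13 were measured, with none at that p and 2192 to 4062 against 1318 to 4055. For red blood cells 5 of 8 were measured, with 1 higher (Hbb-b2) and 1 lower (Alas2), at 731 to 2316 against 751 to 1091. The lowest intensity on any array was 0.119, so a value above 0 does not show that a marker was expressed. The brighter part of the array held 1 of the 10 T and NK cell markers and 2 of the 9 B and plasma cell markers. It held 3 of the 11 skin markers and 2 of the 5 red blood cell markers. The other markers of these lists were dim, and whether the sums of these lists rise above background was not tested.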

How the data were processed

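The authors deposited linear intensity values for 22690 probe sets of 15 MOE430A arrays, made with MAS5 per the submitters' processing notes, which also name RMA, and scaled by the authors so that the mean after trimming 2% at each end was 500 on every array. Low values therefore carry the background subtraction of that software, and the number of arrays limits the precision.

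After removal of 64 control probe sets, the intensities entered the fit as plain log2 values. The young, old and old CR groups (5 arrays each) were fitted together with limma 3.58.1 in R 4.3.3 (moderated by eBayes, prior 2.17 degrees of freedom), with the contrast old CR minus young and Benjamini-Hochberg adjustment over 22626 probe sets. P-values measure the spread between these mice. The test was tested on simulated data made from these arrays: over all probe sets it recovered 54% of 2-fold and 82% of 4-fold changes, with 7 false calls. The simulated noise was normal and independent between arrays, so the 7 false calls are no estimate for the 20 calls.

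Gene symbols came from the platform annotation: 20380 probe sets had 1, 691 several and 1555 none. The text names every called probe set, the 12 largest rises and falls among the brightest 48.1% of probe sets with 1 symbol, no overlap and an unadjusted p under 0.01, the 10 genes with the largest differences at 2 or more such probe sets, and, of each list, up to 4 members with the smallest p and those that define its role. Other named members were chosen after their values were seen. Members and the 47 lists (804 of 916 genes measured, each by its brightest probe set) were chosen with earlier results of these data known. Promoters came from RefSeq (GRCm38.p6), and figures were drawn with Matplotlib 3.10.9.

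Alternatives covered the probe sets tested, scaling, the pseudocount, the arrays and variance model in the fit, a covariate, a replicate block, the threshold, each array left out, and a lognormal-normal model of the kind the study used, with 5 patterns of equality between the groups and a posterior probability over 0.9. That model was fitted to the brightest 48.1% of probe sets only. Tests on the brightest probe sets combined with another choice were added after seeing the data.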

Additional observations from a re-analysis of the deposited data

Results flagged for a closer look

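In groups of 5 mice, 1 value lay far from the other 4 by Dixon's test at 8 probe sets among 108 groups tested, and chance alone gives about 1 in 20. Sparc at 1416589_at was 2340 in old CR replicate 2, against 1644 to 1804 in the other old CR mice. The probe set 1420250_at was 25.99 in old CR replicate 5, against 57.17 to 72.74. Hnrnpa2b1 at 1420365_a_at was 2679 in young replicate 5, against 1698 to 1918 in the other young mice. Igfbp5 was lowest in old CR replicate 2 at both probe sets, at 243 against 517.2 to 616.3 (1422313_a_at) and at 2200 against 2972 to 3077 (1452114_s_at). Wdr26 at 1423963_at was 639.8 in old CR replicate 3, against 322.8 to 370 in the other old CR mice. Col15a1 was 173.1 in old CR replicate 5, against 345.5 to 377.3. Runx1 at 1452531_at was 340.3 in young replicate 3, against 490.9 to 551.5 in the other young mice. The median correlation of young replicate 3 with its own group, 0.925, was also far from that of the other young arrays, 0.950 to 0.959.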

How the results depend on the processing

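The total of 20 called probe sets (limma, adjusted p under 0.05) depended on the setting. It was 214 with the brightest 48.1% of probe sets alone, 151 with a variance trend and robust moderation, 90 on log2(value + 50), 99 at an adjusted p under 0.10 and 232 with the lognormal-normal model, which shared 9 with the 20. It was 12 with each array centered on its median, 8 with the 3′ minus 5′ difference in the model and 6 from the young and old CR arrays alone. Leaving out 1 array gave 7 to 34. Quantile normalization gave 22 and array weights 26. On the brightest probe sets it was 80 with young and old CR arrays alone, 143 without young replicate 3 and 60 with the covariate, settings chosen after seeing the data. With a replicate block (numbers 2, 3 and 5 are shared by the groups) limma called 0 probe sets, with 1311 at an unadjusted p under 0.05. That fit used the young and old CR arrays alone. Arrays whose number occurs in only 1 group add nothing to its contrast, so it rests on fewer mice than the main test. Same-numbered young and old CR arrays had correlations of -0.06, -0.07 and 0.04 between their deviations, and those of unlike number -0.19 to 0.16. The labels do not say that the numbers pair the mice, and so few pairs cannot decide it. The cause of these differences in count was not tested.

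Of 1434 values of named probe sets under the alternatives, 1090 kept their side of the threshold, 123 newly passed it, 221 no longer passed it and 0 changed sign. None of these probe sets had overlapping groups, so leaving out 1 array could not change a sign. The absence of sign changes is therefore largely set by the choice of probe sets. Of 799 list medians, 784 moved by less than the spread between the mice. The other 15 were, on the log2 scale, -0.14 for lipid synthesis, -0.23 for cholesterol synthesis and 0.27 for the neuromuscular junction without old CR replicate 2, -0.45 for imprinted genes without young replicate 5, -0.39 for MHC and -0.0033 for smooth muscle without young replicate 1, -0.06 for Schwann cells without old CR replicate 3, 0.10 for ribosomal proteins after quantile normalization, -0.44 for T and NK cells when each gene's probe sets were averaged, and -0.995 for skin with the covariate. With the replicate block, which rests on the arrays of shared number, they were -0.0041 for insulin and IGF signaling, -0.06 for p53, 0.21 for the Z-disc, -0.24 for chemokines and 0.03 for smooth muscle.

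In simulated data the test over all probe sets recovered 20% of 1.5-fold changes (10 of 50), and that over the brightest 37% (10 of 27). The 2 tests differ in the number of probe sets adjusted over and in the spread of the probe sets themselves.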
